A study of Mus musculus with 21 samples.

Results

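Transcript levels of 8 mouse genes (Mdm4, Tshz1, Efna5, Rims1, Gnpda2, Fndc3a, Caln1 and Ss18l1) are described here across preimplantation embryos with and without a transferred genome. The 8 were picked by name, with no numeric threshold, because their array signal was high in genomeless or interphase transfer embryos and low in drug controls and M phase transfer embryos. They are 8 of 8527 genes that could be tested and of 15967 with a probe of a single gene symbol. They carry 12 probes, and Mdm4, Efna5, Fndc3a and Ss18l1 have 2 each. Because the values in those 4 groups chose the genes, differences among them are given as a description, with no test. The tests compare zygotes, 2-cell embryos and embryonic stem (ES) cells, which the choice did not use. The spread in these tests is estimated over all 8 groups, so it draws on the 4 groups of the rule too.

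The arrays were Illumina bead arrays, on which biotin-labelled amplified RNA binds probes on beads and each probe gives a fluorescence intensity. There were 21 arrays in 8 groups on 6 chips, and each embryo array came from 20 pooled embryos cultured in KSOM, a simple embryo medium. Genomeless embryos (2 arrays) had been enucleated, had received no genome, and were taken 22 to 24 h later, at 48 to 50 h after the hCG injection given to the oocyte donor. Interphase transfer embryos (2 arrays) had been enucleated and given a genome while the zygote was in interphase, and M phase transfer embryos (4 arrays) were taken 22 to 24 h after the transfer, both again at 48 to 50 h after hCG. Drug controls (3 arrays) were intact embryos exposed at mitosis to nocodazole, which depolymerises microtubules, and collected at 48 to 50 h. ES cells (2 arrays) came from culture. Interphase zygotes (3 arrays) were collected at 24 to 28 h, mitotic zygotes (3 arrays), arrested with nocodazole, at 32 to 34 h, and 2-cell embryos (2 arrays) at 48 to 50 h. Mouse strain and the cells that gave the transferred genomes are not stated in the sources used here. No label says that replicate arrays came from separate collections, so p-values measure only the spread between these samples, which may be technical.

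A mouse egg is loaded with transcripts before fertilisation, and the zygote runs on them while its own genome is still largely silent. Many of these maternal transcripts are degraded between the zygote and the 2-cell stage, through shortening of the poly(A) tail by the CCR4-NOT complex and its partner Btg4, while transcription of the embryonic genome starts. One route of this decay uses maternal factors alone, and another depends on transcription by the embryo.

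RefSeq (GRCm38.p6) held 7 promoter windows, from 250 bases before to 50 after a start, for 6 of the 8 genes, and none for Tshz1 or Fndc3a. Of these windows, 3 are printed because the genes move together across the samples while their starts differ in base composition: that of Gnpda2, the only member detected on all 21 arrays (chr5:69592255-69592554, minus strand), the upstream start of Mdm4 (chr1:133030538-133030837, minus strand) and that of Efna5 (chr17:62881268-62881567, minus strand). Capitals mark the E-box CANNTG, the motif bound by basic helix-loop-helix proteins such as the oocyte factor Figla.
Gnpda2: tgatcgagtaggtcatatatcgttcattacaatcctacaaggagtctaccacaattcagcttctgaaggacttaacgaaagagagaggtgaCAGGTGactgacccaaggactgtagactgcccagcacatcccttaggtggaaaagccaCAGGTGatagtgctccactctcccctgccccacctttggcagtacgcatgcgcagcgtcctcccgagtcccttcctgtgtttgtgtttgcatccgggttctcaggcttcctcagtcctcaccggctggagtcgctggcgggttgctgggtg
Mdm4: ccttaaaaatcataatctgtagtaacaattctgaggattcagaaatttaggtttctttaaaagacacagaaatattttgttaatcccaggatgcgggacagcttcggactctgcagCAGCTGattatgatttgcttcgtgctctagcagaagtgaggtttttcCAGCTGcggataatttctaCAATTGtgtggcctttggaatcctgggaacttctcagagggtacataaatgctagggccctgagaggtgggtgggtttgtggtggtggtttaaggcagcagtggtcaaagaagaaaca
Efna5: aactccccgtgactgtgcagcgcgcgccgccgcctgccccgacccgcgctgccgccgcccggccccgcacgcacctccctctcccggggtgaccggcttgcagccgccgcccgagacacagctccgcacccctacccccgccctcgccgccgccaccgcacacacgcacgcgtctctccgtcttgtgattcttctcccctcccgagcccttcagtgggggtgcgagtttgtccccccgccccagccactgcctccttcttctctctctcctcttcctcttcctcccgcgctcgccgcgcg
The Efna5 window had 73.3% G and C with 38 CpG dinucleotides, that of Gnpda2 54.3% with 11, and that of Mdm4 43% with 4, against a median of 52.7% over all 32851 windows. The E-box was found, on both strands, in 4 of the 7 windows, against 72.3% of all windows. TATAAA was in 0 of 7, against 13.6% of all windows, and TAATTG, a sequence bound by the oocyte homeobox protein Nobox, in 0 of 7, against 8% of all windows. The E-box letters cannot overlap either of the other motifs. These are matches of letters in these windows only.

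Signal differed widely between the manipulated groups. Mean signal per array, after the authors' background subtraction, was 11.25 to 334.78 with 2426 to 4816 detected probes in genomeless embryos, 12.79 to 535.14 with 3412 to 5816 in interphase transfer embryos and 73.0 to 687.57 with 5555 to 7531 in M phase transfer embryos, against 107.23 to 124.51 with 6442 to 6849 in drug controls. ES cells, zygotes and 2-cell embryos had 96.85 to 175.91 and 6711 to 8317. Genomeless array B and interphase transfer array B were the 2 dim ones, and results that rest on them are given without them too. A probe was counted as detected where its detection p was below 0.01. Levels below are log2 intensities after background correction and quantile normalisation, which gives every array the same distribution, so a change in the total RNA of an embryo cannot be seen. Fewer cells and less RNA per cell cannot be told apart in pooled embryos either. The mitotic zygote pair A with C and the drug control pair B with C differed least of all pairs within groups (SD of log2 differences 0.117 and 0.12, against 0.28 to 1.48 in the 17 other pairs). Each was averaged as 1 sample, since it may be 1 RNA hybridised again, which left 19 samples.

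The labelled cell types and stages were first checked against marker genes. All 7 measured ES cell markers were detected on both ES arrays. Of 5 blood markers, 1 was detected on each ES array, Cd3e on both (the source label of ES cell A names blood). All 5 measured 2-cell markers were detected on every M phase transfer, drug control and 2-cell array, and 0 or 1 of them on each genomeless and interphase transfer array. Of 7 cumulus or granulosa cell markers, 0 were detected on any genomeless, interphase transfer, M phase transfer or drug control array. For blood, 0 or 1 of the 5 markers were detected per interphase transfer, M phase transfer or drug control array, and 0 per genomeless array. Of 7 fibroblast markers, 0 to 2 were detected per M phase transfer array and 0 or 1 per interphase transfer array. Genomeless and drug control arrays detected 0 of these 7.

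The working name of the set was maternal transcripts cleared only with a genome. Part of it does not match the rule, which also takes high signal in interphase transfer embryos. Each of the 8 was detected on all 6 zygote arrays and was lower in M phase transfer embryos and drug controls than in genomeless embryos. Interphase transfer embryos had also received a genome, yet all 8 means were higher there than in drug controls (median difference 3.30). The rule used the levels in these 4 groups, so they describe the set and test nothing. The genes are therefore called by their rule here, high in genomeless or interphase transfer embryos. Whether a transcript came from the egg was not measured, and an array gives a level at a time, not a rate of loss.

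**Figure D1:**
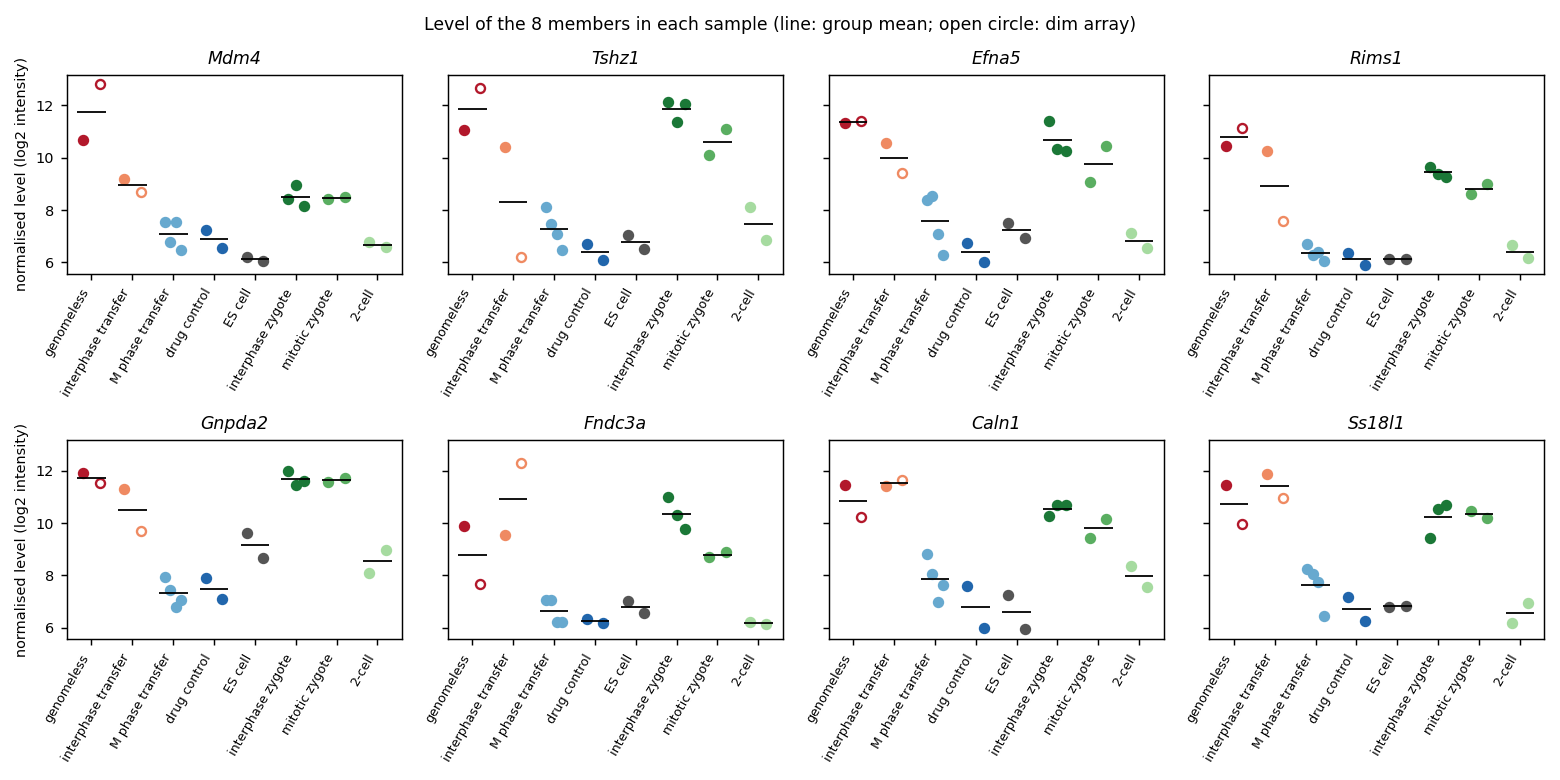
Normalised level (log2 intensity, y axis) of the tested probe of each of the 8 genes in each of the 19 samples, by group along the x axis, with a line at the group mean and open circles for the 2 dim arrays. The zygote samples lie above the 2-cell, drug control and M phase transfer samples for every gene, while genomeless B is at 7.69 for Fndc3a, interphase transfer B at 6.20 for Tshz1 and ES cell A at 9.63 for Gnpda2.

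Among the nuclear regulators, Mdm4 binds p53 and inhibits it together with its relative Mdm2. Mdm4 had log2 levels of 10.66 and 12.83 in genomeless embryos, 9.19 and 8.69 in interphase transfer embryos and 7.56, 6.80, 7.56 and 6.49 in M phase transfer embryos, against 7.23 and 6.57 in drug controls. Genomeless embryos lay above every other sample, and the ranges of M phase transfer embryos and drug controls overlapped. The Mdm4 level was 6.20 and 6.04 in ES cells. In intact embryos it was 8.44, 8.96 and 8.14 in interphase zygotes, 8.44 and 8.52 in mitotic zygotes and 6.77 and 6.59 in 2-cell embryos. In its order of 8 group means, interphase transfer embryos overlapped their neighbour, interphase zygotes, and these overlapped mitotic zygotes. So did M phase transfer embryos, drug controls and 2-cell embryos with each other, and ES cells, where the probe was detected on 0 of 2 arrays, were lowest.

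Tshz1 is a zinc finger transcription factor of the teashirt family, needed for normal formation of the soft palate and middle ear in the mouse. Its levels were 11.07 and 12.66 in genomeless embryos, 10.42 and 6.20 in interphase transfer embryos and 8.14, 7.46, 7.10 and 6.48 in M phase transfer embryos, against 6.72 and 6.11 in drug controls. The 2 interphase transfer samples disagreed, since Tshz1 was not detected on the dim array B (detection p 0.358), so that group overlapped the drug controls. ES cells had 7.04 and 6.51. Along the stages, Tshz1 was at 12.14, 11.35 and 12.06 in interphase zygotes, 10.11 and 11.11 in mitotic zygotes and 8.13 and 6.84 in 2-cell embryos. Genomeless embryos and interphase zygotes overlapped at the top of the order, and every neighbouring pair from mitotic zygotes downwards overlapped too.

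Ss18l1, also called CREST, is a calcium-responsive transactivator and a subunit of the chromatin remodelling complex of neurons. It stood at 11.47 and 9.97 in genomeless embryos, 11.88 and 10.97 in interphase transfer embryos and 8.24, 8.05, 7.76 and 6.47 in M phase transfer embryos, against 7.19 and 6.25 in drug controls. Both genomeless and both interphase transfer samples exceeded every M phase transfer and drug control sample. The ES cell levels were 6.81 and 6.83. Interphase zygotes had 9.43, 10.55 and 10.67, mitotic zygotes 10.45 and 10.21 and 2-cell embryos 6.20 and 6.94. The order of means fell into an upper part of 4 groups (interphase transfer, genomeless, mitotic and interphase zygotes) and a lower part of 4, and neighbours overlapped within each part.

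Efna5 encodes ephrin-A5, a membrane-anchored ligand of Eph receptors that guides growing axons. Efna5 had 11.33 and 11.39 in genomeless embryos, 10.58 and 9.41 in interphase transfer embryos and 8.39, 8.55, 7.08 and 6.30 in M phase transfer embryos, against 6.75 and 6.02 in drug controls. M phase transfer samples A and B, which share a chip, were well above both drug controls, and sample D, on another chip, lay between the drug controls. In ES cells it was at 7.50 and 6.94. The stages had 11.40, 10.33 and 10.27 in interphase zygotes, 9.06 and 10.47 in mitotic zygotes and 7.13 and 6.55 in 2-cell embryos. As for Ss18l1, the 4 upper groups did not overlap the 4 lower ones in the order of means, and neighbours within each part overlapped.

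Fndc3a is a fibronectin type III domain protein needed in the mouse for spermatids to stay attached to Sertoli cells. Its levels in genomeless embryos were 9.90 and 7.69, in interphase transfer embryos 9.55 and 12.29 and in M phase transfer embryos 7.04, 7.06, 6.21 and 6.21, against 6.32 and 6.16 in drug controls. Fndc3a was not detected on genomeless array B (detection p 0.0256) or on any of the 3 drug control arrays. ES cells had 7.01 and 6.58. Its level was 10.98, 10.29 and 9.78 in interphase zygotes, 8.69 and 8.88 in mitotic zygotes and 6.20 and 6.15 in 2-cell embryos, where it was detected on 0 of 2 arrays. Interphase transfer embryos, interphase zygotes, genomeless embryos and mitotic zygotes overlapped as neighbours, as did the 4 lower groups.

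Rims1 and Caln1 act at synapses and in calcium signalling. Rims1 is a scaffold of the presynaptic active zone that binds Rab3. Rims1 levels were 10.44 and 11.13 in genomeless embryos, 10.25 and 7.59 in interphase transfer embryos and 6.70, 6.28, 6.42 and 6.05 in M phase transfer embryos, against 6.35 and 5.91 in drug controls. The probe was not detected on interphase transfer array B or on any drug control array. The deposited signal of Rims1 was 1895.7 and 92.7 on genomeless arrays A and B, against 8.8, -1.8 and -3.5 on the 3 drug control arrays. ES cells had Rims1 levels of 6.13 and 6.12, with 0 of 2 arrays detected. Interphase zygotes had 9.65, 9.39 and 9.28, mitotic zygotes 8.62 and 8.99 and 2-cell embryos 6.66 and 6.17. Genomeless embryos stood alone at the top for Rims1, and the lower 4 groups overlapped as neighbours.

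Caln1, calneuron 1, is a calcium-binding EF-hand protein best known from the brain. Caln1 was at 11.45 and 10.22 in genomeless embryos, 11.41 and 11.64 in interphase transfer embryos and 8.83, 8.04, 7.0 and 7.64 in M phase transfer embryos, against 7.58 and 6.0 in drug controls. The 2 drug control samples were far apart, since Caln1 was detected on array A and on neither array B nor C. ES cells were at 7.26 and 5.97. The Caln1 level was 10.25, 10.68 and 10.69 in interphase zygotes, 9.44 and 10.17 in mitotic zygotes and 8.38 and 7.54 in 2-cell embryos. In the order of means, neighbours overlapped among the upper 3 groups (interphase transfer embryos, genomeless embryos and interphase zygotes) and among the lower 4, and mitotic zygotes lay between without overlapping a neighbour.

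Gnpda2 is a glucosamine-6-phosphate deaminase, which turns an amino sugar phosphate back into fructose-6-phosphate and ammonia. Gnpda2 was detected on every array, with levels of 11.91 and 11.53 in genomeless embryos, 11.28 and 9.68 in interphase transfer embryos and 7.94, 7.46, 6.79 and 7.07 in M phase transfer embryos, against 7.89 and 7.09 in drug controls. Its deposited signal was 7509.2 and 137.5 on genomeless arrays A and B, against 110.1, 32.5 and 29.8 on drug control arrays A, B and C. ES cells had 9.63 and 8.67, more than either drug control sample. The stages had 11.98, 11.46 and 11.62 in interphase zygotes, 11.55 and 11.72 in mitotic zygotes and 8.11 and 8.96 in 2-cell embryos. Genomeless embryos and both kinds of zygote overlapped at the top, interphase transfer embryos came next without overlap, then ES cells with 2-cell embryos, and drug controls with M phase transfer embryos were lowest.

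**Figure D2:**
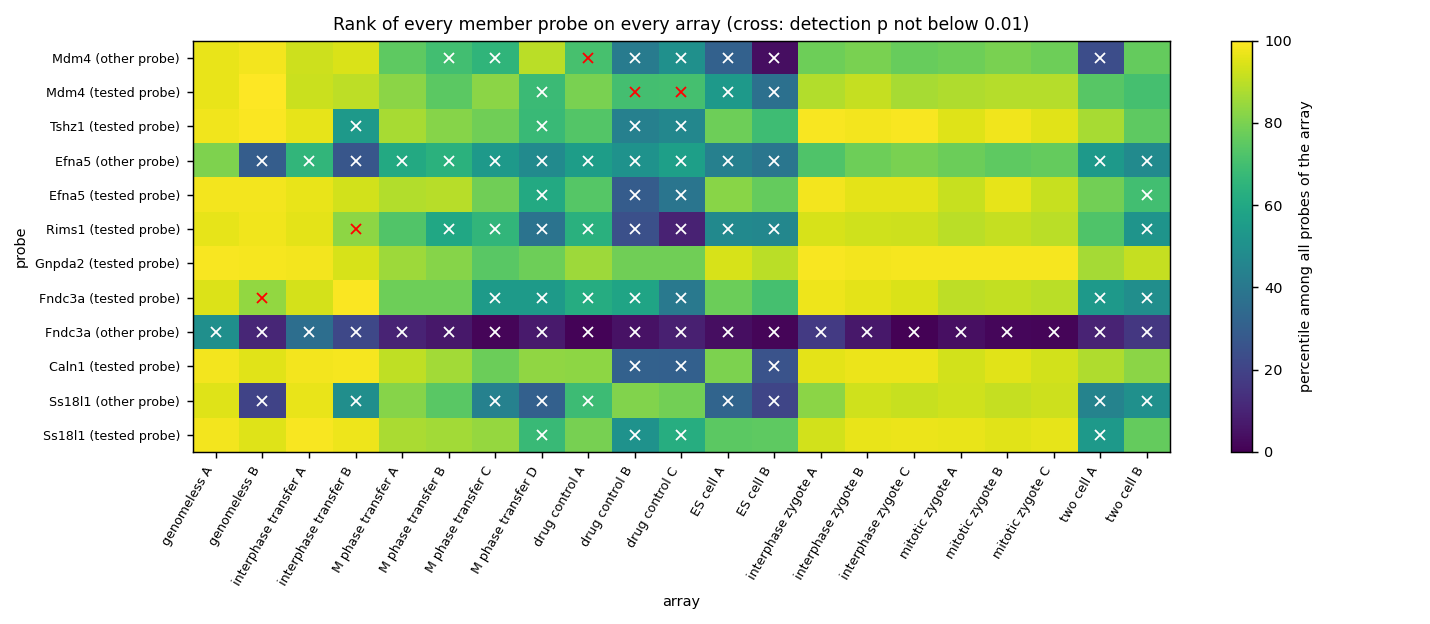
Rank of each of the 12 member probes (rows) among all probes of an array, as a percentile by colour, on each of the 21 arrays (columns), with a cross where the detection p was not below 0.01. The 8 tested probes have no cross on the 6 zygote arrays, while the other Fndc3a probe has a cross on all 21.

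Over the 8 tested probes, the share of probe and array pairs that were detected was 15 of 16 in genomeless embryos, 14 of 16 in interphase transfer embryos and 23 of 32 in M phase transfer embryos, against 8 of 24 in drug controls. It was 11 of 16 in ES cells, and 24 of 24 in interphase zygotes, 24 of 24 in mitotic zygotes and 11 of 16 in 2-cell embryos. The map of probe ranks shows that the other probes of the same genes did not always follow. The other Mdm4 probe had 4.66 for genomeless minus drug control and 3.13 for interphase transfer minus drug control, where the tested probe had 4.85 and 2.05. The other Efna5 probe had 0.44 and -0.01 in these contrasts, where the tested probe had 4.97 and 3.61. The other Ss18l1 probe had 1.12 and 1.52, where the tested probe had 4.0 and 4.71. The other Fndc3a probe was detected on 0 of 21 arrays. For Efna5 and Ss18l1 the values that follow thus belong to the brighter probe.

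Genomeless minus drug control, the contrast behind the choice, had a median log2 difference of 4.44 over the 8 genes (2.55 to 5.46), against -0.03 over all 8527 genes. Tshz1 had the largest difference, 5.46 ± 1.0 (SE from the limma fit, 2 samples each), and Mdm4 had 4.85 ± 0.57. Each SE here and below rests on a spread estimated over all 8 groups. The 2 genomeless samples of Mdm4 had an SD of 1.53. Where a gene was undetected on every drug control array only a bound can be given. On the quantile scale Rims1 was at least 17-fold higher in genomeless embryos, from 10.44 on array A and 11.13 on dim array B. Over the alternatives its log2 difference ran from 2.83 to 6.40. Fndc3a was 4.29-fold higher by the same reckoning, which is no bound because genomeless array B did not detect it either. The size depended on the scaling. On the authors' mean-scaled values, with values below 16 set to 16 here and below, the median was 5.74 (4.10 to 7.37). That size rests partly on the floor of 16. With median scaling the median was 2.90 (1.80 to 3.95), against -0.18 over all genes. It was 4.60 without the 2 dim arrays, 4.52 without genomeless A and 4.54 without genomeless B. On chip 6, which held genomeless array B and drug control array C, it was 4.86.

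Interphase transfer minus drug control had a median of 3.30 (1.90 to 4.74). The median was 2.49 with median scaling, against -0.08 over all genes, and 4.53 on the authors' mean-scaled values. It was 4.15 without the 2 dim arrays, and 2.61 without interphase transfer A, where 7 genes were higher and Tshz1 had -0.21. Interphase transfer array B did not detect Tshz1, so that sign cannot be read. Caln1 had 4.74 ± 0.65 and Ss18l1 4.71 ± 0.64, while Tshz1 had 1.90 ± 1.0 with overlapping groups. On the quantile scale Fndc3a was at least 18.7-fold higher in interphase transfer embryos, from 9.55 on array A and 12.29 on dim array B. Over the alternatives its log2 difference ran from 3.30 to 6.80. Rims1 was 4.66-fold higher by the same reckoning, which is no bound because interphase transfer array B did not detect it. M phase transfer minus drug control had a median of 0.63 (-0.18 to 1.19) with overlapping samples for each of the 8 genes. Its median was 0.98 with median scaling, against 0.28 over all genes, and 1.36 on the authors' mean-scaled values, and leaving out drug control A gave 0.86 and leaving out the averaged drug control pair 0.30. Its highest values were 1.19 ± 0.62 for Efna5 and 1.09 ± 0.56 for Caln1, and the lowest was -0.18 ± 0.46 for Gnpda2 (4 and 2 samples). These 3 comparisons share the drug control samples. The share of all genes with overlapping samples is not given here, so nothing is read from the overlaps.

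Within chips, where genomeless or interphase transfer embryos can be set against M phase transfer embryos hybridised beside them, the genes were higher in all but 1 case. Genomeless minus M phase transfer had a median of 3.29 on chip 5 and 4.65 on chip 6, with all 8 genes higher on both. Interphase transfer minus M phase transfer had 2.80 on chip 5, with 8 of 8 higher, and 2.74 on chip 6, with 7 of 8 higher and Tshz1 at -0.59. That sign cannot be read, because interphase transfer array B did not detect Tshz1 and its lowest detected level was 8.04. Oocyte markers moved with the genes in summed intensity but not in the number detected. Of 9, 6 to 7 were detected per genomeless array, 5 to 7 per interphase or M phase transfer array and 7 per drug control array. The summed intensity of the 9 measured ones was 28793 to 33021 in genomeless embryos, 29971 to 30664 in interphase transfer embryos and 7142 to 13044 in M phase transfer embryos, against 9038 to 10156 in drug controls. Their part in the result was not tested.

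Genomeless embryos, set against mitotic zygotes, had higher means for all 8 genes on the quantile scale, with a median difference of 1.14 (0.01 to 3.27) against -0.10 over all genes. Mdm4 had 3.27 ± 0.57, Rims1 1.98 ± 0.59 and Efna5 1.60 ± 0.71, without overlap, and Caln1 had 1.03 ± 0.65, also without overlap. Tshz1, Gnpda2, Fndc3a and Ss18l1 overlapped. Without the share over all genes, nothing is read from this split. The other probes of Mdm4, Efna5 and Ss18l1 had 3.88, -0.26 and -1.12. With a gene's kept probes averaged, 7 of the 8 were higher and 1 lower. The differences also depended on the scaling. With median scaling 3 of the 8 were higher and 5 lower, with a median of -0.28 against -0.44 over all genes, and on the authors' mean-scaled values 6 were higher and 2 lower, with a median of 1.02 against -0.41. Without the 2 dim arrays the median was 1.36, and without genomeless array A it was 1.02, with 5 higher and 3 lower.

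Interphase transfer embryos, set against interphase zygotes, had a median difference of -0.05 (-3.54 to 1.21), with 4 genes higher and 4 lower. Ss18l1 had 1.21 ± 0.58 and Caln1 0.99 ± 0.59, and Tshz1 had -3.54 ± 0.92 and Gnpda2 -1.20 ± 0.49 (2 and 3 samples). Here the other probes of Mdm4, Efna5 and Ss18l1 had 2.41, -0.79 and -0.30. Without the 2 dim arrays the median was 0.30 and Tshz1 had -1.43. With median scaling 1 gene was higher and 7 were lower, with a median of -0.67 against -0.26 over all genes. Drug controls minus 2-cell embryos, both at 48 to 50 h, had a median of -0.37 (-1.17 to 0.22), with 3 genes higher and 5 lower, and -0.66 with all 8 lower without drug control A.

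**Figure D3:**
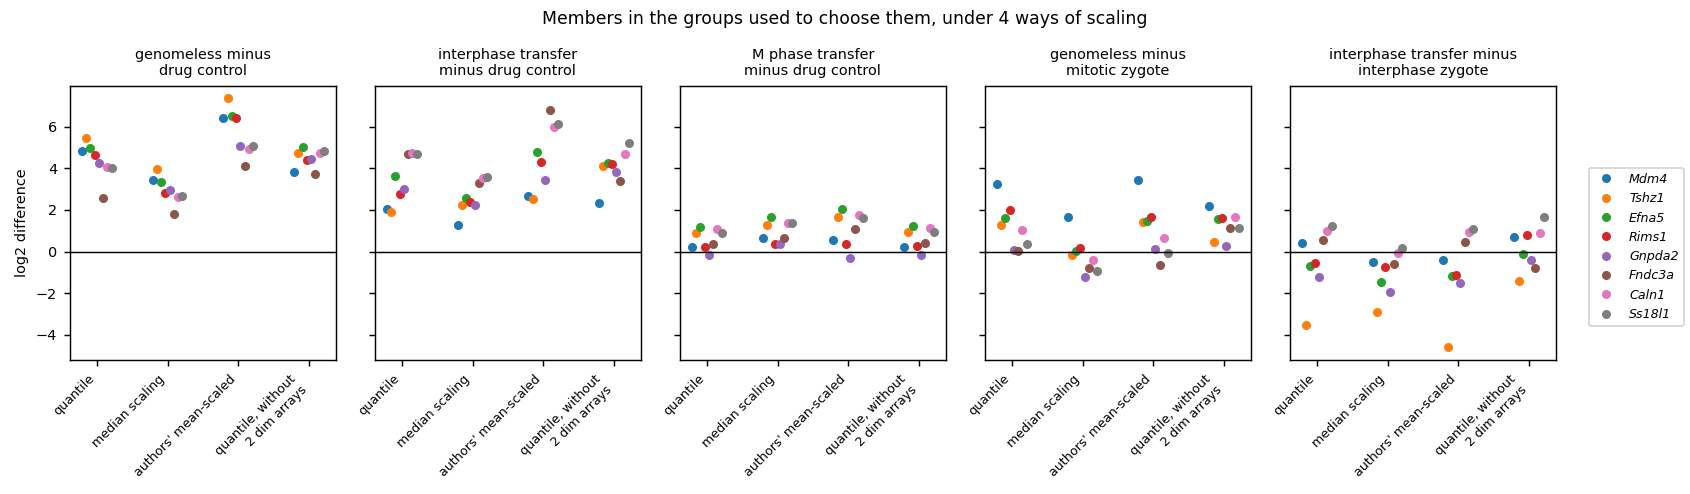
Log2 difference (y axis) of each of the 8 genes, 1 colour per gene, in 5 contrasts that include groups used to choose them, under 4 ways of scaling along the x axis. Genomeless minus drug control stays above 0 for all 8 genes in each, while genomeless minus mitotic zygote has a median of 1.14 with quantile normalisation and -0.28 with median scaling.

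A fall of these genes from the first mitosis to the 2-cell stage was tested between groups the choice did not use. The spread in the fit came from all 8 groups, those of the rule included. All 8 fell in 2-cell embryos relative to mitotic zygotes (limma, Benjamini-Hochberg adjusted p below 0.05), where 13.8% of all genes tested were called lower and 27.6% were called in either direction. The samples did not overlap for any of the 8, but the share of all genes without overlap is not given here, so nothing is read from this. The median log2 difference was -2.77 (-3.76 to -1.80), against -0.02 over all genes. Over the alternatives this median ran between -4.24, on the authors' mean-scaled values, and -2.37, without mitotic sample B. Low signal in drug controls, collected at the same hours as 2-cell embryos, was part of the rule, so the count is not independent of the choice of genes.

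Ss18l1 fell most, with a log2 difference of -3.76 ± 0.64 (adjusted p 0.000616), and Gnpda2 had -3.10 ± 0.53 (adjusted p 0.000693). Efna5 had -2.92 ± 0.71 (adjusted p 0.0072) and Rims1 -2.39 ± 0.59 (adjusted p 0.00803). For Fndc3a, undetected on both 2-cell arrays, 2-cell embryos were at least 4.62-fold lower (adjusted p 0.0209). The calls nearest the threshold were Mdm4 with -1.80 ± 0.57 (adjusted p 0.0293), Tshz1 with -3.12 ± 1.0 (adjusted p 0.0321) and Caln1 with -1.84 ± 0.65 (adjusted p 0.0478). All are limma fits with 2 samples in each group. The other probes of Mdm4, Efna5 and Ss18l1 had -0.70, -0.74 and -2.99.

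Within chip 4, which held both groups, all 8 were lower with a median of -2.76. The number of members called depended on each sample: leaving out the averaged mitotic pair gave 4, leaving out the remaining mitotic sample, B, gave 2, and it was 4 without 2-cell sample A and 2 without 2-cell sample B, with all 8 lower each time. With median scaling 0 of the 8 were called, where 812 of 8527 genes were called lower. All 8 were lower in that setting, with a median of -2.84 against -0.22 over all genes. Summed oocyte markers were 8584 to 9680 in 2-cell embryos, against 45210 to 47351 in mitotic zygotes. Mitotic zygotes were held in nocodazole, so stage and drug cannot be told apart in this contrast.

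**Figure D4:**
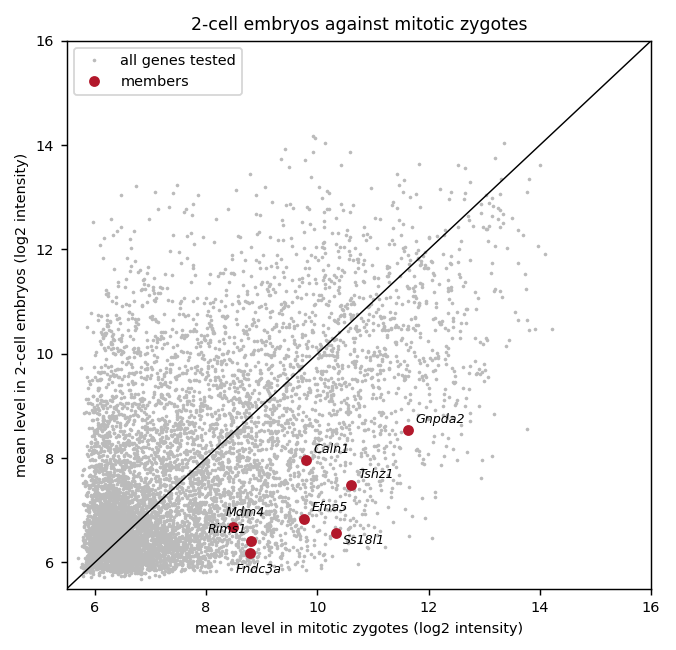
Mean level of each tested gene in 2-cell embryos (y axis, log2 intensity) against its mean level in mitotic zygotes (x axis, log2 intensity), with the 8 members in red and a line of equal levels. The members lie below the line, by 1.80 for Mdm4 up to 3.76 for Ss18l1.

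By description, the 1177 genes called lower in 2-cell embryos had a median genomeless minus mitotic zygote difference of -1.30 and a median genomeless minus drug control difference of 0.58, where the 8 members had 1.14 and 4.44. Their median interphase transfer minus drug control difference was 0.79, and that of M phase transfer minus drug control was 0.03. The members were chosen on these values, so nothing is read from the contrast.

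Between the zygote stages, 0 of the 8 were called in mitotic relative to interphase zygotes, and limma called 0% of all genes (402 of 8527 had an unadjusted p below 0.05). Of the 8, 7 had lower and 1 higher means, with a median of -0.69 against 0.01 over all genes. Fndc3a had -1.56 ± 0.70 (unadjusted p 0.0428), Tshz1 -1.24 ± 0.92, Efna5 -0.91 ± 0.65 and Ss18l1 0.11 ± 0.58 (limma, 2 and 3 samples). Mdm4, Efna5, Gnpda2 and Ss18l1 overlapped between the stages, from which nothing is read, since the share over all genes is not given.

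ES cells, cultured pluripotent cells, were lower than interphase zygotes for all 8 genes, and each was called. Of all genes, 16.7% were called lower and 35.9% in either direction. High signal in enucleated embryos (genomeless or interphase transfer) was part of the rule, so this count may not be independent of the choice of genes. The median difference was -3.42, against 0.01 over all genes, and between -4.67, on the authors' mean-scaled values, and -3.16, with median scaling, over the alternatives. Tshz1 had -5.07 ± 0.92 (adjusted p 0.000667), Caln1 -3.93 ± 0.59 (adjusted p 0.000169), Fndc3a -3.56 ± 0.70 (adjusted p 0.00127) and Efna5 -3.45 ± 0.65 (adjusted p 0.00091). Ss18l1 had -3.40 ± 0.58 (adjusted p 0.000452) and Gnpda2 -2.54 ± 0.49 (adjusted p 0.00101). Rims1 and Mdm4, undetected on both ES arrays, were at least 7.38-fold (adjusted p 0.000311) and at least 3.88-fold lower (adjusted p 0.00251). All of these are limma fits with 2 and 3 samples. Within chip 2, which held both groups, the median was -3.23 with all 8 lower. Without ES cell A all 8 were lower, with a median of -3.56. With median scaling 4 were called, where 900 of 8527 genes were called lower, against 1426 in the main fit.

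Set against 2-cell embryos, ES cells had 0 of the 8 members called (limma), where 15.3% of all genes were called (8.37% higher and 6.97% lower), and 0 had an unadjusted p below 0.05. The means were higher for 4 and lower for 4, with a median of -0.02. Gnpda2 had 0.61 ± 0.53 and Caln1 -1.35 ± 0.65 (2 samples each). A p above the threshold does not show that the levels are alike. This comparison shares samples with both comparisons in which all 8 were called.

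**Figure D5:**
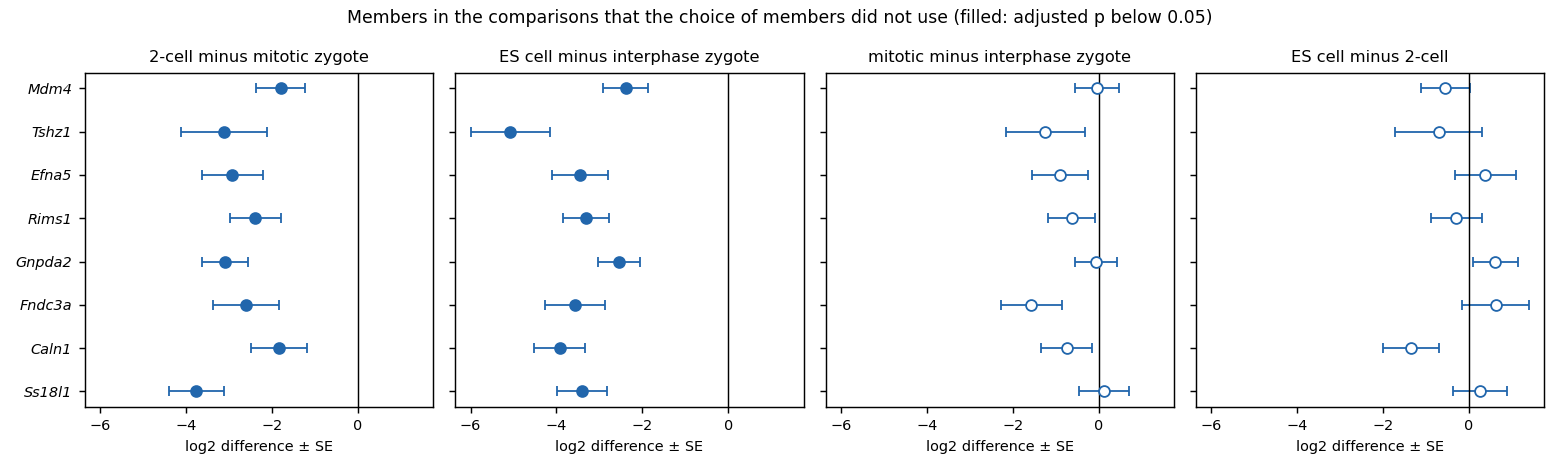
Log2 difference ± SE (x axis) of the 8 genes in the 4 tested comparisons, with filled circles for an adjusted p below 0.05. All 8 are filled and below 0 for 2-cell embryos minus mitotic zygotes and for ES cells minus interphase zygotes, and none is filled in the other 2.

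Genes of the families and pathways of the members were counted in the same fits, where 13.8% of all genes rose and 13.8% fell in 2-cell embryos relative to mitotic zygotes, and 19.2% rose and 16.7% fell in ES cells relative to interphase zygotes. Of the 8 tested relatives of the members, 1 rose and 2 fell in 2-cell embryos, near the share over all genes, with a list median of -0.52 against -0.02 over all genes. Efna1, another ephrin-A ligand, rose at least 5.09-fold (limma adjusted p 5.68e-06). Cabp1, a calcium-binding relative of Caln1, was at least 2.83-fold lower (adjusted p 0.00053), and Efna4 at least 2.32-fold lower (adjusted p 0.00213). Efna1 levels averaged 6.20 in genomeless embryos, against 8.88 in drug controls, the opposite order to Efna5. In ES cells relative to interphase zygotes, 0 of the 8 relatives rose and 2 fell (19.2% and 16.7% of all genes).

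Among ephrin-B ligands and Eph receptors, 0 of 8 rose and 1 fell at the 2-cell stage (13.8% and 13.8% of all genes), with a list median of -0.18. That was Ephb6, a receptor without kinase activity, with -1.74 ± 0.51 (limma adjusted p 0.0205), and Epha3 had -0.94 ± 0.35 (adjusted p 0.0575). In ES cells relative to interphase zygotes 0 rose and 3 fell (19.2% and 16.7% of all genes), among them Epha3 by at least 2.91-fold and Ephb6 by at least 3.23-fold.

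In the p53 circuit around Mdm4, 2 of 7 tested genes rose and 0 fell at the 2-cell stage (13.8% and 13.8% of all genes), with a list median of 1.28. Rpl5, a ribosomal protein that can bind Mdm2, rose by 3.0 ± 0.50 (limma adjusted p 0.000566), and Cdkn1a, the cell cycle inhibitor p21 and a p53 target, by 2.82 ± 0.80 (adjusted p 0.0171). Mdm2 itself had 1.38 ± 0.57 (adjusted p 0.0886). Its mean levels were 12.95 in genomeless embryos, 12.06 in interphase transfer embryos and 11.75 in M phase transfer embryos, against 11.60 in drug controls. In ES cells relative to interphase zygotes 2 of 7 rose and 0 fell (19.2% and 16.7% of all genes).

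In amino sugar metabolism around Gnpda2, 2 of 9 rose and 0 fell at the 2-cell stage (13.8% and 13.8% of all genes), with a list median of 0.60. Renbp, an N-acylglucosamine epimerase, rose at least 15.5-fold (limma adjusted p 0.00108), and Uap1, which makes UDP-N-acetylglucosamine, by 2.72 ± 0.58 (adjusted p 0.00302). Renbp averaged 6.03 in genomeless embryos and 9.98 in M phase transfer embryos, against 11.13 in drug controls. In ES cells relative to interphase zygotes 3 of 9 rose and 0 fell (19.2% and 16.7% of all genes).

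Of 21 tested genes of maternal RNA decay, 1 rose and 8 fell at the 2-cell stage (13.8% and 13.8% of all genes), with a list median of -0.75. Cnot6l, a deadenylase of CCR4-NOT, fell by 4.20 ± 0.50 (limma adjusted p 4.29e-05) and Cnot7, another deadenylase, fell by 3.18 ± 0.44 (adjusted p 0.000135). Tut7, a terminal uridylyltransferase, rose by 3.23 ± 0.83 (adjusted p 0.00989), and Parn, a poly(A) ribonuclease, fell by 2.90 ± 0.61 (adjusted p 0.00286). Cnot6l mean levels were 11.53 in genomeless embryos, 11.46 in interphase transfer embryos and 7.14 in M phase transfer embryos, against 7.26 in drug controls. Parn, which fell at the 2-cell stage too, averaged 6.02 in genomeless embryos, against 7.40 in drug controls. In ES cells relative to interphase zygotes 3 of 21 rose and 8 fell (19.2% and 16.7% of all genes).

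Across the 19 samples the members followed each other, by description, with Pearson correlations of 0.53 to 0.94 and a median of 0.83 over 28 pairs. Efna5 was closest to the mean of the other 7 (0.97) and Fndc3a farthest (0.78). The samples share groups and chips, and the genes were chosen for a common pattern. The genes whose levels were most like the mean profile of the members were Rab14 (0.964), Mapre1 (0.964), Csnk1e (0.962), Cnot6l (0.958), Senp1 (0.957), Cox10 (0.955), Runx1t1 (0.951) and Elavl3 (0.949). Without the 2 dim arrays, over 17 samples, these 8 had correlations of 0.95 to 0.968. Mapre1, which binds the growing ends of microtubules, averaged 13.23 in genomeless embryos, against 9.48 in drug controls. Senp1, a SUMO protease, averaged 10.23 in genomeless embryos, against 7.71 in drug controls.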

How the data were processed

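The authors deposited non-normalised probe intensity for 21 arrays of 24613 probes, a signal after background subtraction (values below 0 occur), with a detection p-value per probe that they computed against background. Their processed intensity values, also deposited, are the same signal times 1 factor per array, with a mean of 198.09. GenomeStudio is named per the submitters' processing notes, with no version. With limma 3.58.1 (R 4.3.3), signals went through normexp background correction with an offset of 50, then quantile normalisation, then log2. A filter kept the 11541 probes that 2 or more arrays detected (p below 0.01), symbols came from the platform annotation updated by gene ID, and the brightest probe was used per gene (8527 genes, 1377 with more than 1 kept probe). Of all probes 20984 had 1 symbol, 1 had several and 3628 had none.

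One limma fit over 19 samples, with a mean per group and 11 residual degrees of freedom, gave 4 tested comparisons, with Benjamini-Hochberg adjustment over all genes within each and a threshold of 0.05. A further 6 differences are described. A bound sets the bright group's mean against the higher of the lowest detected signal and the dim probe's own signal, per array. Bounds hold on the quantile scale only. The members and gene lists were chosen with earlier results of these data known. Genes named are the members, up to 4 per list by the size of the 2-cell minus mitotic zygote difference, and the 8 most like the members' mean profile. The number of arrays limits precision. The fit was tested on simulated data. Alternatives changed background, scaling, filter, probe choice, repeat arrays, chip, replicate letter, weights and left-out samples. The authors' mean-scaled values were floored at 16 before log2. Within-chip values and a crossed replicate letter were added after seeing the data.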

Additional observations from a re-analysis of the deposited data

How the results depend on the processing

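Over the alternatives run, every member kept the sign of its difference in 2-cell minus mitotic zygote (136 of 136 values), ES cell minus interphase zygote (144 of 144) and genomeless minus drug control (104 of 104). It did so in 103 of 104 values for interphase transfer minus drug control, 117 of 120 for M phase transfer minus drug control, 82 of 96 for genomeless minus mitotic zygote, 96 of 104 for interphase transfer minus interphase zygote, 91 of 96 for drug control minus 2-cell, 117 of 128 for mitotic minus interphase zygote and 127 of 128 for ES cell minus 2-cell. Median scaling called 1297 genes in 2-cell minus mitotic zygote (485 higher and 812 lower, against 1179 and 1177) with 0 members. It called 770 in ES cell minus 2-cell (637 and 133, against 714 and 594). In ES cell minus interphase zygote it called 2204 (1304 and 900, against 1634 and 1426) with 4 members. It moved the median of all genes to -0.22 and 0.17 in the first and second of these. With no filter 5 members were called in 2-cell minus mitotic zygote, among 2194 genes, and array weights called 5115 genes there. In mitotic minus interphase zygote, where 0 genes were called, there were 3 with no filter, 25 with the 21 arrays as separate samples, 1270 with array weights (1 member) and 1 without the 2 dim arrays. Leaving out 1 sample in turn gave 1326 to 1452 genes and 2 to 4 members in 2-cell minus mitotic zygote, 0 to 10 genes in mitotic minus interphase zygote and 638 to 1100 genes in ES cell minus 2-cell, where 638 came without 2-cell sample B, 679 without 2-cell sample A and 839 without ES cell A. The lone sample left is then assumed to vary like the other groups. The cause of these changes was not tested. Replicate letters did not pair the samples (mean correlation of same-letter residuals 0.02 over 62 pairs), and with the letter as a replicate block 3094, 13, 1665 and 3342 genes were called in 2-cell minus mitotic, mitotic minus interphase, ES cell minus 2-cell and ES cell minus interphase zygote. Same-letter ES cell and 2-cell samples correlated at -0.11, and the crossed pairing called 1767 genes. Chip as a fixed block could not be fitted for mitotic minus interphase zygote or ES cell minus 2-cell, which share no chip. Low signal limits detection on the 2 dim arrays, where the lowest detected log2 level was 8.74 (genomeless B) and 8.04 (interphase transfer B), against 6.42 to 7.29 on the others.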
